A study of Homo sapiens with 14 samples.

Results

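Of 14 neuroblastoma cell lines, each sequenced as 1 RNA library, 9 were compared here, chosen by their measured level of TAP1, the gene of a subunit of the transporter that carries peptides to MHC class I molecules. Lines with TAP1 over 1 CPM formed the TAP1-high group of 4 lines (Lan-6, SK-N-AS, SK-N-BE(2)C and SK-N-FI), and lines under 1 CPM the TAP1-low group of 5 lines (CLB-GA, IMR32, NBL-S, NGP and SK-N-DZ). CPM stands for counts after scaling every library to the same total. The other 5 lines were set aside: the mesenchymal lines GI-ME-N and SK-N-SH, LS, and the subclones SH-SY5Y, derived from SK-N-SH, and IMR5-75, derived from IMR32. All were established human tumour lines, without a treatment in the labels, grown in RPMI1640 or DMEM with fetal bovine serum and no antibiotics. TRIzol total RNA was made into TruSeq libraries. The question was what else differs between lines of high and low TAP1 RNA when the mesenchymal lines GI-ME-N and SK-N-SH are left out. TAP1 RNA stands here for antigen presentation, which was not itself measured.

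Nearly all cells show fragments of their own proteins to cytotoxic T cells on MHC class I molecules. Proteasomes cut the proteins, the TAP1 and TAP2 transporter moves the peptides into the endoplasmic reticulum, tapasin and its partners load them, and the class I heavy chain leaves for the surface with beta-2 microglobulin. Interferons raise most of these genes through IRF and STAT factors, and NLRC5 is the class I transactivator. Neuroblastoma, a childhood tumour of the sympathetic lineage, is known for low class I expression.

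TAP1 made the groups, so its values are given as a description. The level reached 1.69 CPM in Lan-6, 4.86 in SK-N-AS, 3.10 in SK-N-BE(2)C and 17.3 in SK-N-FI, against 0.0845 CPM in CLB-GA, 0.124 in NBL-S, 0.175 in IMR32, 0.296 in NGP and 0.299 in SK-N-DZ. The lines nearest the limit were therefore Lan-6, with 50 counts, and SK-N-DZ, with 14 counts. No line fell between 0.299 and 1.69 CPM among the 9. Of the lines set aside, SK-N-SH had 44.1 CPM, and GI-ME-N (0.651), SH-SY5Y (0.482), IMR5-75 (0.332) and LS (0.189) were below the limit. PSMB8, an immunoproteasome subunit encoded next to TAP1 and used with it to mark the groups, had 12.9 CPM in Lan-6, 2.48 in SK-N-AS, 5.01 in SK-N-BE(2)C and 13.8 in SK-N-FI. In the TAP1-low lines it had 0 counts in CLB-GA, IMR32 and NBL-S, 1 count in NGP and 2 counts in SK-N-DZ.

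The sequences 250 bases upstream of the starts of TAP1, TAP2, B2M, TAPBP and OAS3 are shown because each holds the core of the interferon-stimulated response element. TAP1 is among them because it defines the groups, and the other 4 because all TAP1-high lines stood above all TAP1-low lines. A further RefSeq start of TAP1, not shown, held no core. They are from RefSeq on GRCh38.p14, read 5′ to 3′ along each gene's strand, and capitals mark every match to the core, GAAA, any 2 bases and GAAA again, on either strand, so overlapping matches run together. The windows are chr6:32853705-32853954 (minus strand) for TAP1, chr6:32838740-32838989 (minus) for TAP2, chr15:44711267-44711516 (plus) for B2M, chr6:33314079-33314328 (minus) for TAPBP and chr12:112938224-112938473 (plus) for OAS3.
TAP1: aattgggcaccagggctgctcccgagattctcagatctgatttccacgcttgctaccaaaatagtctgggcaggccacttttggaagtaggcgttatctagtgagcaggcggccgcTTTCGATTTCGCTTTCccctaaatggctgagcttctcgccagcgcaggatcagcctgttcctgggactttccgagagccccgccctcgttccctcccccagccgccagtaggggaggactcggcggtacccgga
TAP2: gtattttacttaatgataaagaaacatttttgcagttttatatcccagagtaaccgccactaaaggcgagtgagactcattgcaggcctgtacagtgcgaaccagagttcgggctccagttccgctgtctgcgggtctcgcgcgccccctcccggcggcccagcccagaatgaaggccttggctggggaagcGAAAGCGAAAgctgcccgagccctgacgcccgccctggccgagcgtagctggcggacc
B2M: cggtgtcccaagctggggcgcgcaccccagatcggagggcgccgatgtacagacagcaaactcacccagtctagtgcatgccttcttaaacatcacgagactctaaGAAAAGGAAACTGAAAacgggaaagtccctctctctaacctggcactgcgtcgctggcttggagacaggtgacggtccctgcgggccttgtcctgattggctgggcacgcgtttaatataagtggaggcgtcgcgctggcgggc
TAPBP: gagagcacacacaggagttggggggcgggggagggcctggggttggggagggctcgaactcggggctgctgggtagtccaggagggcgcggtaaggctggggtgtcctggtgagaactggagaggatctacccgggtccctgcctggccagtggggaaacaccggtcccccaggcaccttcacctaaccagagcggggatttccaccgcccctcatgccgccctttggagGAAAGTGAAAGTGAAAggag
OAS3: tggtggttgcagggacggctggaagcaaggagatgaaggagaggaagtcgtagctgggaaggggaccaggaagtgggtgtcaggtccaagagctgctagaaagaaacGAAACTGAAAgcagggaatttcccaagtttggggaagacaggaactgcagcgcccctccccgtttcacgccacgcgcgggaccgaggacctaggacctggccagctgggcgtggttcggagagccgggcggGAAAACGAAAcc

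The core was present upstream of at least 1 start in 3.71% of 27305 genes. It was present in 10 of the 23 matched genes of class I presentation, the immunoproteasome and their regulators (43.5%). In the 17 matched interferon-stimulated genes it was present in 15 (88.2%). The gamma-activated site TTCNNNGAA, a palindrome, was found in 8.09% of genes, 17.4% of the antigen presentation genes and 35.3% of the interferon-stimulated genes. Of the 6 matched antigen presentation genes whose groups did not overlap, TAP1 and PSMB8 left out, 3 held the response element core. TAP1 shares a bidirectional promoter with the immunoproteasome gene PSMB9, whose levels in the groups overlapped. PSMB9 was at 0.373, 1.70, 1.39 and 3.0 CPM in Lan-6, SK-N-AS, SK-N-BE(2)C and SK-N-FI, against 0.380 to 1.07 CPM in the TAP1-low lines.

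Over the 9 lines, library totals ran from 35856642 counts in Lan-6 to 49315563 in SK-N-FI, and mitochondrial genes took 4.56% to 10.9% of counts. The Lan-6 library stood apart: across genes, its level relative to the other lines followed GC content with a Spearman rho of 0.559 and length with -0.266, while in the other 8 lines these ran from -0.147 to -0.039 and from -0.016 to 0.14. SK-N-AS went against the non-mesenchymal label in part. It had 1051 CPM of VIM, 59.3 of YAP1, 63.5 of WWTR1, 1216 of COL3A1, 146 of DCN and 297 of LUM, the highest of the 9 lines for each. Some other mesenchymal markers were not highest in SK-N-AS. It had 44.8 CPM of FN1, against 811 in SK-N-DZ, and 4.44 of PRRX1, against 91.1 in NGP. SNAI2 was at 6.07 CPM, against 20.4 in SK-N-FI, and TWIST1 at 58.8, against 94.5 in NGP. Its CD44, at 0.944 CPM, was the lowest of the 9 lines. Its summed mesenchymal markers reached 1423 CPM, against 285 to 814 in the other TAP1-high lines and 299 to 1034 in the TAP1-low lines, and its summed fibroblast markers 2490 CPM, against 134 to 327 and 93.9 to 665. Of 15 tested mesenchymal markers, 11 had positive fold changes between the groups, with 5 higher and 1 lower at an unadjusted p under 0.05 and 0 called (median log2 fold change 1.12, and 0.86 without SK-N-AS). Of 8 tested fibroblast markers, 6 had positive fold changes and 4 an unadjusted p under 0.05, with 0 called and a median of 1.47. Without SK-N-AS, 2 of the 8 were positive and the median was -0.98. Among all tested genes, 53.7% had positive fold changes, and 6.30% were higher and 4.86% lower at an unadjusted p under 0.05 (edgeR). Of the adrenergic genes, SK-N-AS had the regulator HAND2 at 523 CPM, with HAND1 at 0.0236 and TH, an enzyme of catecholamine synthesis, at 0.519. The leukocyte phosphatase gene PTPRC reached 470 CPM in the same line, with no more than 2.91 in any of the other 8. Of the other leukocyte markers in that line, CD3E gave 0 counts and CD14 a level of 0.189 CPM, but CD68 was at 17.5 CPM, the highest of the 9 lines. The 8 leukocyte markers summed to 487 CPM in SK-N-AS and 6.5 to 11.7 in the other TAP1-high lines, against 6.1 to 11.1 in the TAP1-low lines. Endothelial markers summed to 2.1 to 10.7 CPM in TAP1-high lines and 4.0 to 7.0 in TAP1-low lines, and Schwann cell markers to 6.4 to 8.2 and 3.8 to 19.6. Adrenergic markers summed to 3283 to 26470 CPM in TAP1-high lines and 2157 to 9277 in TAP1-low lines. The part of the Lan-6 library and of the SK-N-AS state in the results was not tested beyond the values without these lines. In bulk RNA, fewer cells of a type and less RNA per cell cannot be told apart.

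Across 17340 tested genes, 2 passed an adjusted p of 0.05 by edgeR's quasi-likelihood test (0.0115%), both lower in the TAP1-high lines: SLC1A2 and SEMA5A. None was called higher (0%), although 1092 genes were higher (6.30%) and 843 lower (4.86%) at an unadjusted p under 0.05. DESeq2's Wald test called 254 higher and 356 lower. Leaving out SK-N-AS or SK-N-BE(2)C left 0 calls. Leaving out Lan-6 left SLC1A2 alone of 17759 genes (0.00563%), beside 8.96% with an unadjusted p under 0.05. Non-overlap gives a second, untested description. All TAP1-high lines stood above all TAP1-low lines in 242 genes (1.40%) and below them in 385 genes (2.22%). The median log2 fold change over all tested genes was 0.06, with 53.7% positive and 46.3% negative. P-values measure the spread between lines with 1 library each, technical differences included.

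SLC1A2 encodes the glutamate transporter EAAT2, which clears glutamate from synapses, and lies at chr11:35251205-35420063 (minus strand, GRCh38, GENCODE 29). It was at 0.847 CPM in Lan-6, 1.44 in SK-N-AS, 1.87 in SK-N-BE(2)C and 1.62 in SK-N-FI, against 90.9 in CLB-GA, 71.2 in IMR32, 27.4 in NBL-S, 61.6 in NGP and 90.6 in SK-N-DZ. The lowest TAP1-low line was thus far above the highest TAP1-high line. SLC1A2 fell in the TAP1-high lines, with a log2 fold change of -5.54 (SE 0.49) and an adjusted p of 0.00765 by edgeR's quasi-likelihood test. Without Lan-6 the log2 fold change was -5.36 and the adjusted p 0.0442 (edgeR). Without SK-N-AS the adjusted p was 0.0796, without SK-N-BE(2)C 0.0552, and with MYCN as a covariate 0.0666 (edgeR). The adjusted p was 0.145 over all 14 lines, 0.453 for a slope on the TAP1 level and 0.138 without both Lan-6 and SK-N-AS (edgeR). Among the lines set aside, SLC1A2 was at 0.851 CPM in SK-N-SH, where TAP1 was highest, and at 25.5 in its subclone SH-SY5Y. GI-ME-N broke the pattern at 0.961 CPM with TAP1 under the limit, LS had 6.48 CPM, and IMR5-75 had 41.9 CPM.

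SEMA5A encodes a transmembrane semaphorin that guides axons, at chr5:9035026-9546075 (minus strand). Its levels were 0.780, 0.708, 0.888 and 0.253 CPM in Lan-6, SK-N-AS, SK-N-BE(2)C and SK-N-FI, against 63.9, 74.8, 23.4, 18.6 and 81.3 CPM in CLB-GA, IMR32, NBL-S, NGP and SK-N-DZ. No TAP1-high line reached 1 CPM. SEMA5A fell, with a log2 fold change of -6.29 (SE 0.70) and an adjusted p of 0.0334 (edgeR's quasi-likelihood test). The call was lost without Lan-6 (adjusted p 0.134, edgeR), and also without SK-N-AS, SK-N-BE(2)C, CLB-GA, IMR32 or SK-N-DZ, with MYCN as a covariate (0.185) and for a slope on TAP1 (0.177). Over all 14 lines the log2 fold change was -3.59, with an adjusted p of 0.309 (edgeR). SK-N-SH, with high TAP1, had 19.3 CPM and so went against the split.

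The class I genes are ordered by their place in the pathway. Of 14 tested members of the list of class I molecules and peptide loading, TAP1 left out, 13 had a positive fold change and 10 an unadjusted p under 0.05, but 0 passed the adjusted test in either direction. The median log2 fold change was 2.34, and 1.92 without Lan-6, beside 0.06 over all genes. Over all tested genes, 53.7% had a positive fold change and 6.30% were higher at an unadjusted p under 0.05 (edgeR). For 6 members, HLA-B, B2M, TAP2, TAPBP and TAPBPL among them, every TAP1-high line was above every TAP1-low line. The share of all tested genes apart in that direction was 1.40%. With the length and GC trend of each library removed, HLA-B in Lan-6 was at 0.843 CPM, under NGP at 1.28. TAPBPL in Lan-6 was then at 4.42 CPM, under IMR32 at 5.71 and SK-N-DZ at 4.72. B2M, TAP2 and TAPBP stayed apart. The chaperones PDIA3, CALR and CANX, which fold many proteins besides class I, overlapped between the groups, with log2 fold changes of 0.19, 0.74 and -0.10.

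**Figure D1:**
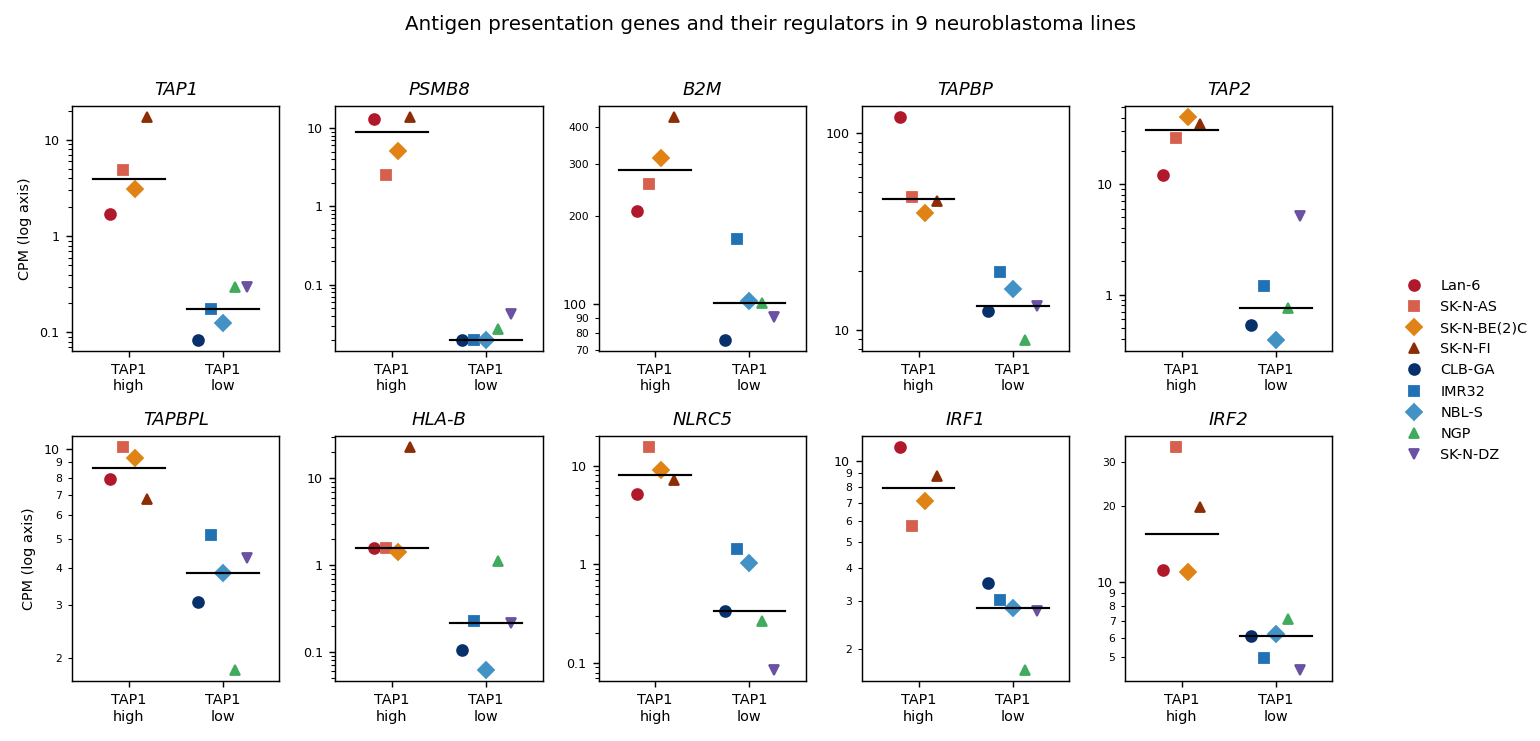
Levels of 10 antigen presentation genes and regulators in CPM on log axes, 1 point per line, TAP1-high lines left and TAP1-low lines right. Black lines are group medians and values under 0.02 CPM are drawn at 0.02. No point of the left group lies at or below a point of the right group in any panel. TAP1 and PSMB8 mark the groups, and the other genes were shown because their groups did not overlap. This separation is therefore no result of its own, and list members whose groups overlapped are not shown. Levels are shown without removal of length and GC trends.

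HLA-B, a class I heavy chain, was at 1.59, 1.56, 1.41 and 23.0 CPM in Lan-6, SK-N-AS, SK-N-BE(2)C and SK-N-FI, against 0.0621 to 1.1 CPM in the TAP1-low lines. SK-N-FI stood alone here, and NGP nearly met the other TAP1-high lines. HLA-C and HLA-E overlapped between the groups: HLA-C was at 2.24 to 86.4 CPM in TAP1-high lines and 0.0414 to 8.57 in TAP1-low lines, and HLA-E at 0.102 to 31.6 and 0.148 to 1.97. The HLA genes are closely alike in sequence and differ between people, so how reads were shared among them is uncertain.

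B2M, the light chain that every class I molecule needs, had 207, 256, 314 and 431 CPM in Lan-6, SK-N-AS, SK-N-BE(2)C and SK-N-FI, against 76.1 in CLB-GA, 166 in IMR32, 103 in NBL-S, 101 in NGP and 90.8 in SK-N-DZ. All lines thus carried B2M transcripts, and the gap between the groups was narrow. The log2 fold change was 1.51 (SE 0.32, adjusted p 0.189, edgeR).

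TAP2, the partner of TAP1 in the transporter, was at 12 CPM in Lan-6, 25.9 in SK-N-AS, 40.5 in SK-N-BE(2)C and 35.3 in SK-N-FI, against 0.528 in CLB-GA, 1.2 in IMR32, 0.394 in NBL-S, 0.753 in NGP and 5.19 in SK-N-DZ. Its log2 fold change was 4.15 (SE 0.85, adjusted p 0.178, edgeR). TAPBP, the gene of tapasin, averaged 63.1 ± 38.5 CPM in TAP1-high lines and 14.1 ± 4.07 CPM in TAP1-low lines (SD, n = 4 and 5), with log2 fold changes of 2.19 over the 9 lines and 1.65 without Lan-6, which had 121 CPM. TAPBPL, the tapasin-related peptide editor, averaged 8.54 ± 1.47 and 3.65 ± 1.27 CPM. Of the trimming peptidases of the endoplasmic reticulum, ERAP2 was at 3.69 to 26.0 CPM in TAP1-high lines and 0.866 to 4.01 in TAP1-low lines, and ERAP1 was at 12.1 to 48.8 and 11.8 to 31.4 CPM.

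Of the immunoproteasome and its activator, 4 genes besides PSMB8, which marks the groups, were tested. All 4 had positive fold changes (median 1.53, and 1.06 without Lan-6). At an unadjusted p under 0.05 (edgeR) there were 3, beside 6.30% of all tested genes, and 0 were called. In none of the 4 were the groups apart. The share of all tested genes apart was 1.40% upward and 2.22% downward, and 53.7% had positive fold changes. The activator subunit PSME1 was at 344 CPM in Lan-6, 129 in SK-N-AS, 92.4 in SK-N-FI and 29.8 in SK-N-BE(2)C, against 12.4 to 55.1 CPM in TAP1-low lines. SK-N-BE(2)C therefore lay inside the TAP1-low range. The 3 constitutive subunits that immunosubunits replace had a median log2 fold change of 0.50, and 0.03 without Lan-6.

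Among 9 regulators of class I genes, 3 did not overlap between the groups, and all 3 were higher in TAP1-high lines. Of all tested genes, 1.40% were apart in that direction. NLRC5 was at 5.22, 15.4, 9.11 and 7.19 CPM in Lan-6, SK-N-AS, SK-N-BE(2)C and SK-N-FI, against 0.338 in CLB-GA, 1.42 in IMR32, 1.04 in NBL-S, 0.269 in NGP and 0.0855 in SK-N-DZ. Its log2 fold change was 3.88 (SE 0.84), with an adjusted p of 0.197 (edgeR). IRF1, an interferon-induced activator of class I promoters, averaged 8.24 ± 2.40 CPM in TAP1-high lines and 2.77 ± 0.683 CPM in TAP1-low lines, with a log2 fold change of 1.6 and an adjusted p of 0.330 (edgeR). IRF2, a factor that binds the same element, was at 11.2, 34.4, 10.9 and 19.8 CPM in Lan-6, SK-N-AS, SK-N-BE(2)C and SK-N-FI, against 4.47 to 7.13 CPM. The other 6 overlapped, RFX5, RFXAP, RFXANK, RELA and NFKB1 among them. RELA, a subunit of NF-kappaB, was at 36.8 to 113 CPM in TAP1-high lines and 40.6 to 75.0 in TAP1-low lines.

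Class II molecules, which present to helper T cells, showed no shared direction. Of 5 tested genes 2 had positive fold changes, and HLA-DRA had at most 0.0181 CPM in TAP1-high lines and 0.323 in TAP1-low lines. CD74, the class II invariant chain, was at 0.237 to 0.448 CPM in TAP1-high lines, against 15.6 in SK-N-DZ, 3.63 in NGP and at most 0.549 in the other TAP1-low lines.

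Interferon-stimulated genes, antiviral genes switched on by interferon, were uneven among the TAP1-high lines. Of 19 tested, 18 had positive fold changes and 9 an unadjusted p under 0.05, with 0 called, a median of 1.88 and a median of 2.05 without Lan-6. In 4 of them, IFI35, IFIT2, OAS2 and OAS3, the groups did not overlap, with the TAP1-high lines above. Of all tested genes, 1.40% were apart in that direction, 53.7% had positive fold changes and 6.30% were higher at an unadjusted p under 0.05 (edgeR). OAS2, a relative of OAS3, was apart within counting error only, at 0.746, 0.425, 0.615 and 0.794 CPM in Lan-6, SK-N-AS, SK-N-BE(2)C and SK-N-FI, against 0.321 to 0.424 CPM, with 18 counts in SK-N-AS and 17 in IMR32. OAS3, which makes the activator of RNase L on sensing double-stranded RNA, had 29.3, 11.5, 67.7 and 78.8 CPM in Lan-6, SK-N-AS, SK-N-BE(2)C and SK-N-FI, against 3.25 in CLB-GA and 0.128 to 0.311 in the other TAP1-low lines. The log2 fold change was 5.89 (SE 1.21, adjusted p 0.178, edgeR). Leaving out CLB-GA brought OAS3 past the threshold. IFI35 was at 33.6 CPM in Lan-6, 12.4 in SK-N-AS, 4.8 in SK-N-FI and 1.0 in SK-N-BE(2)C, against 0.190 to 0.624 CPM in the TAP1-low lines.

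Single lines led different genes of the list. SK-N-FI led IFI6 at 122 CPM and MX2 at 100.3 CPM. SK-N-AS led IFI44L at 63.3, IFITM3 at 88.7 and USP18, the brake on interferon receptor signalling, at 32.5 CPM. Lan-6 led OAS1 at 81.9 CPM, where SK-N-AS had 0.165. SK-N-BE(2)C had low IFI6 (3.57 CPM), ISG15 (0.433) and BST2 (0.341), all within the TAP1-low range. Of the TAP1-low lines, IMR32 had 15.7 CPM of IFI44, SK-N-DZ 16.7 of BST2 and NBL-S 31.6 of MX2. CXCL10 had 0 counts in 8 of 9 lines and 0.118 CPM in SK-N-AS.

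**Figure D2:**
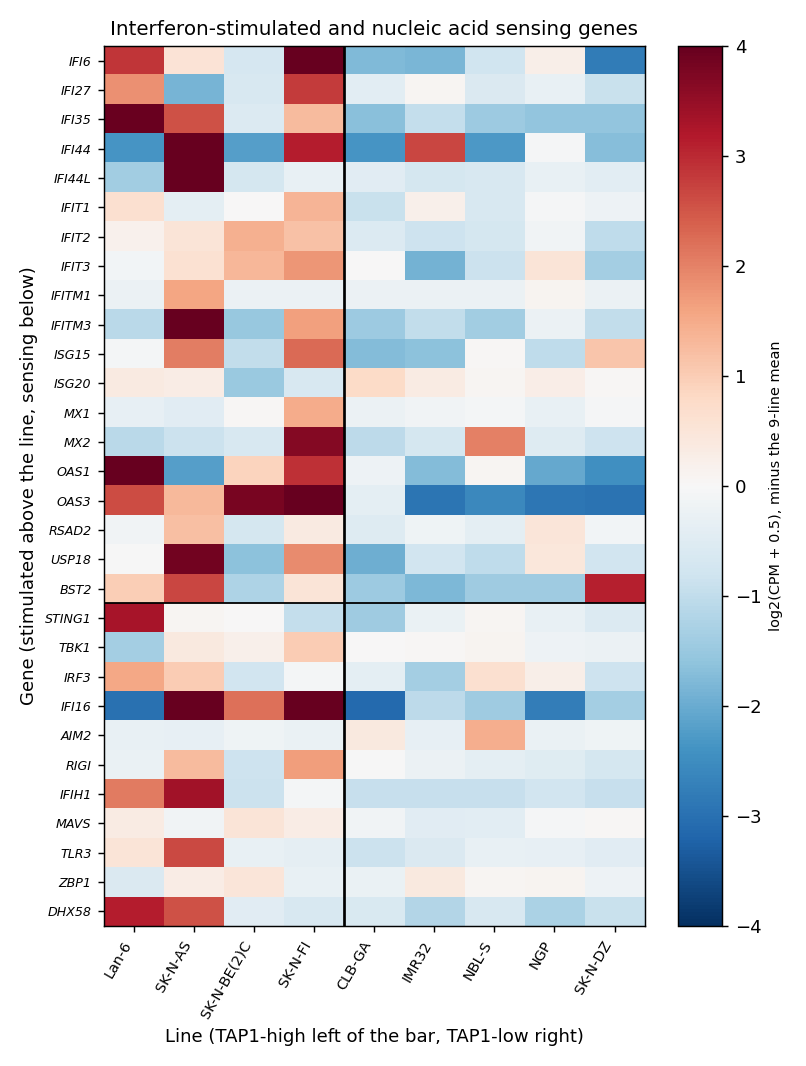
Interferon-stimulated genes (above the black line) and nucleic acid sensing genes (below it) with at least 1 CPM in 1 or more of the 9 lines, coloured by log2(CPM + 0.5) minus the mean over the 9 lines, TAP1-high lines left of the bar. Red cells gather in Lan-6, SK-N-AS and SK-N-FI but in different genes, while SK-N-BE(2)C is red for few genes, OAS3 among them.

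The receptors and kinases of interferon signalling had a smaller median fold change. Of 13 tested, 11 had positive fold changes with a median of 0.21, and no gene's groups were apart. Of all tested genes, 53.7% had positive fold changes, 1.40% were apart upward and 2.22% downward. At these shares, a short list with no gene apart says little. IFNAR1 was at 41.2 to 56.3 CPM in TAP1-high lines and 24.4 to 83.6 in TAP1-low lines, and IFNGR1 at 10.5 to 48.7 and 16.6 to 41.6. Of 10 tested nucleic acid sensing genes, 8 had positive fold changes, with a median of 1.09 and 0.55 without Lan-6. The DNA sensor IFI16 was at 273 CPM in SK-N-AS, 144 in SK-N-FI and 23.7 in SK-N-BE(2)C but at 0.169 in Lan-6, against 0.106 to 2.05 CPM in TAP1-low lines. STING1 (TMEM173 in the table), the adaptor of cytosolic DNA sensing, was at 14.3 CPM in Lan-6 and 0.271 to 1.09 in the other TAP1-high lines, against 0.0633 to 1.1 in TAP1-low lines. Its log2 fold change of 2.75 became 0.32 without Lan-6. Both genes thus lacked a common level within the TAP1-high group. Of 9 tested NF-kappaB genes, 7 had positive fold changes (median 0.49), and none of them separated the groups.

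Of the ligands seen by immune cells, the PD-L1 gene CD274 had 1.83 CPM in Lan-6, 1.18 in SK-N-AS, 0.933 in SK-N-BE(2)C and 2.29 in SK-N-FI, against 0.0211 in CLB-GA, 0.823 in IMR32, 0.269 in NBL-S, 0.0269 in NGP and 0.0214 in SK-N-DZ. The groups did not overlap, but IMR32 was close to SK-N-BE(2)C. The log2 fold change was 2.76 (SE 1.05, adjusted p 0.411, edgeR). All these levels were far below SK-N-SH at 95 CPM and GI-ME-N at 31.5. CD274 was the only one of 7 tested checkpoint and surface ligands whose groups were apart (median of the list 0.36). Among all tested genes, 1.40% were apart upward and 2.22% downward. CD276, or B7-H3, was at 95.3 to 253 CPM in TAP1-high lines and 42.4 to 155 in TAP1-low lines. Of 5 tested ligands of natural killer cell receptors, NCR3LG1, or B7-H6, the ligand of NKp30, was lower in every TAP1-high line. It was at 1.80, 10.3, 32.5 and 33.6 CPM in Lan-6, SK-N-AS, SK-N-BE(2)C and SK-N-FI, against 66.5, 98.4, 108, 61.9 and 129 CPM in CLB-GA, IMR32, NBL-S, NGP and SK-N-DZ. Its log2 fold change was -2.24 (SE 0.71, adjusted p 0.346, edgeR).

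Outside the lists, 10 genes higher in TAP1-high lines were named by their p-values, among genes whose groups did not overlap. None of the 10 passed the test, with adjusted p from 0.0736 to 0.161 (edgeR). Among them were DDX60L, C19orf66, TLR4, APOL2, JADE2, SH2B3, MMP2, RCAN3 and PLOD3. DDX60L, a helicase-like relative of the interferon-induced DDX60, was at 6.78, 38.5, 18.2 and 21.2 CPM in Lan-6, SK-N-AS, SK-N-BE(2)C and SK-N-FI, against 1.08 to 1.94 CPM in TAP1-low lines. C19orf66, the antiviral frameshifting inhibitor SHFL, was at 5.19 to 48.8 CPM in TAP1-high lines and 0.125 to 1.30 in TAP1-low lines. TLR4, the receptor for bacterial lipopolysaccharide, was at 4.58 to 34.2 CPM and 0.250 to 1.35. Non-overlap was required for these genes to be named, so it is no result of its own. MMP2, a matrix metalloprotease, was at 198 to 832 CPM in TAP1-high lines and 43.8 to 130 in TAP1-low lines. SH2B3, an adaptor that restrains cytokine receptor signalling, was at 48.2 to 141 and 16.0 to 32.6. PLOD3, a collagen-modifying lysyl hydroxylase, was at 79.2 to 160 and 23.8 to 61.4.

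Lower in TAP1-high lines, besides SLC1A2 and SEMA5A, were 8 genes named in the same way that did not pass, with adjusted p from 0.0526 to 0.102 (edgeR). NCAN, GRIP1 and LAMA1 were the nearest to the threshold. NCAN, the brain proteoglycan neurocan, was at 0.0339, 0.0236, 0.0683 and 0.415 CPM in Lan-6, SK-N-AS, SK-N-BE(2)C and SK-N-FI, against 39.3, 58.0, 42.6, 17.1 and 44.1 CPM in CLB-GA, IMR32, NBL-S, NGP and SK-N-DZ. Those levels are 1, 1, 3 and 23 counts in the TAP1-high lines. NCAN was also at 0.357 CPM in SK-N-SH and 61.0 in SH-SY5Y, but at 0.0620 in GI-ME-N and 0.754 in LS, both under the TAP1 limit. GRIP1, a scaffold for AMPA glutamate receptors, was at 0.373 to 0.774 CPM in TAP1-high lines and 7.96 to 17.7 in TAP1-low lines. LAMA1, a laminin chain of basement membranes, was at 0.271 to 1.2 and 14.9 to 121. CNR1, the cannabinoid receptor of neurons, was at 0.0236 to 0.199 and 2.44 to 32.3. The kainate receptor partner NETO1 had at most 2 counts in any TAP1-high line, against 21 counts in SK-N-DZ and 312 or more in the other TAP1-low lines. TMEM196 had 0 counts in 3 TAP1-high lines and 3 in SK-N-FI, against 97 to 749 counts. SERPINE2, a protease inhibitor also called protease nexin, was at 0.339 to 4.21 CPM in TAP1-high lines and 27.8 to 84.0 in TAP1-low lines. SK-N-SH had 318 CPM and GI-ME-N 847, so that the mesenchymal lines did not resemble the TAP1-high lines for this gene. SH-SY5Y and GI-ME-N, both with TAP1 under the limit, broke the pattern in several of these genes. SH-SY5Y had 1.28 CPM of SERPINE2, 0.0918 of GRIP1, 0.574 of CNR1, 0.0229 of TMEM196 and 0 counts of NETO1, but 13.1 CPM of LAMA1. GI-ME-N had 0.093 CPM of GRIP1, 0.341 of LAMA1, 0.031 of CNR1 and 0.031 of TMEM196, but 10.0 of NETO1. IMR5-75, also under the limit, had 28.3 CPM of SERPINE2, 12.1 of GRIP1, 23.0 of CNR1 and 9.39 of TMEM196.

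**Figure D3:**
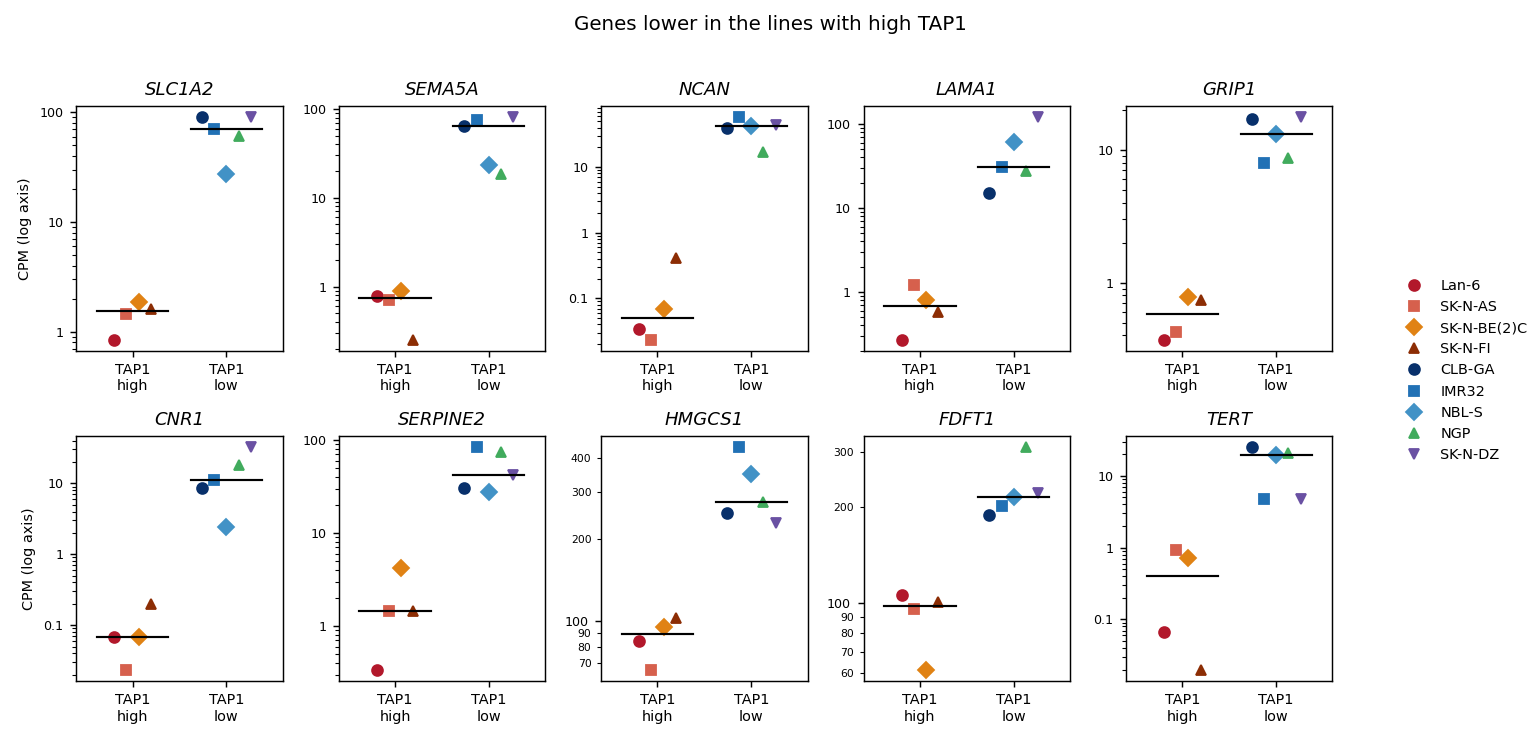
Levels of 10 genes in CPM on log axes, 1 point per line, TAP1-high lines left and TAP1-low lines right, with group medians as black lines and values under 0.02 CPM drawn at 0.02. All points of the left group lie below all points of the right group, and SLC1A2 and SEMA5A passed the adjusted test. For the genes named by their p-values without passing, this separation was a condition of being named. TERT and FDFT1 were shown because their groups were apart.

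TERT, the catalytic subunit of telomerase, was apart between the groups in the direction opposite to TAP1. It had 2 counts in Lan-6 (0.0678 CPM), 0.921 CPM in SK-N-AS, 0.728 in SK-N-BE(2)C and 0 counts in SK-N-FI, where 0 allows up to 0.0542 CPM (3 counts, counting error only). The TAP1-low lines had 25.1 CPM in CLB-GA, 4.82 in IMR32, 19.3 in NBL-S, 20.6 in NGP and 4.72 in SK-N-DZ. The log2 fold change was -5.10 (SE 1.35), with an adjusted p of 0.303 (edgeR), so the difference did not pass. Of the lines set aside, SK-N-SH broke the pattern, with 6.56 CPM of TERT and 44.1 of TAP1. The other 4, with TAP1 under the limit, had more TERT than any TAP1-high line: LS 4.85 CPM, IMR5-75 7.33, SH-SY5Y 17.4 and GI-ME-N 68.5. The other telomerase components overlapped between the groups, as did all 6 shelterin genes (median 0.21) and all 8 genes linked to telomerase-independent lengthening (median 0.12). The share of all tested genes apart was 1.40% upward and 2.22% downward. Overlap of every gene in lists this small therefore says little.

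**Figure D4:**
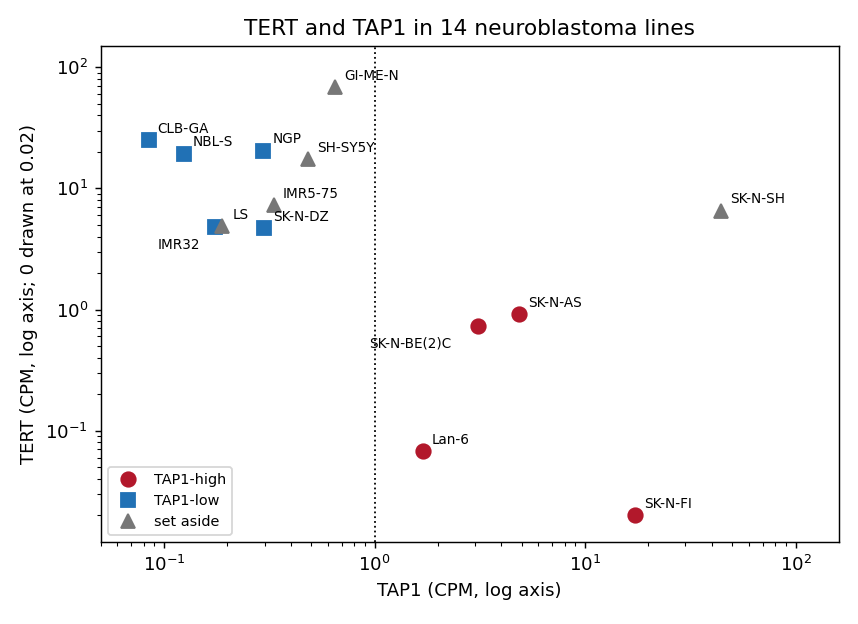
TERT against TAP1 in CPM on log axes, 1 point per line; red circles are TAP1-high lines, blue squares TAP1-low lines and grey triangles the lines set aside, with the limit of 1 CPM dotted. The 4 TAP1-high lines lie under 1 CPM of TERT and the 5 TAP1-low lines at 4.72 CPM or more, while SK-N-SH has both genes high.

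MYCN, the amplified driver of many neuroblastomas, did not separate the groups. Levels were 7.29 CPM in Lan-6, 0.496 in SK-N-AS, 2245 in SK-N-BE(2)C and 50 in SK-N-FI, against 27.5 in CLB-GA, 1442 in IMR32, 213 in NBL-S, 1177 in NGP and 1209 in SK-N-DZ. The highest MYCN level was thus in a TAP1-high line, and CLB-GA had little MYCN and the lowest TAP1. MYC was at 0.637 to 53.2 CPM in TAP1-high lines and 0.0641 to 6.65 in TAP1-low lines.

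Proliferation genes leaned lower, with 10 of 10 fold changes negative and a median of -0.56 (-0.40 without Lan-6), but 0 were called. Of all tested genes, 46.3% had negative fold changes. TOP2A, the topoisomerase of dividing cells, was at 148, 566, 451 and 455 CPM in Lan-6, SK-N-AS, SK-N-BE(2)C and SK-N-FI, against 602 to 1090 in TAP1-low lines (adjusted p 0.436, edgeR). Of 10 polycomb and DNA methyltransferase genes, whose products silence promoters, 8 had negative fold changes with a median of -0.49. RBBP4, a histone-binding subunit, was at 154 to 299 CPM in TAP1-high lines and 332 to 390 in TAP1-low lines, and EZH2, the polycomb methyltransferase, was at 60.6 to 182 and 52.7 to 151. Of 12 genes of the DNA damage response, MDM2, the p53 inhibitor, was the only one apart, at 71.1 to 88.6 CPM in TAP1-high lines and 102 to 922 in TAP1-low lines, with NGP highest. Among all tested genes, 2.22% were apart in that direction.

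Genes of cholesterol synthesis and uptake were listed after HMGCS1 had been seen to be low, so the list has no test. Of 24 tested, 17 had negative fold changes and 9 an unadjusted p under 0.05 in that direction, with a median of -0.37 that was -0.97 without Lan-6. Among all tested genes, 46.3% had negative fold changes and 4.86% were lower at an unadjusted p under 0.05 (edgeR). HMGCS1, which makes HMG-CoA, was at 84.5, 66.1, 94.8 and 102 CPM in Lan-6, SK-N-AS, SK-N-BE(2)C and SK-N-FI, against 251, 438, 349, 274 and 230 CPM in CLB-GA, IMR32, NBL-S, NGP and SK-N-DZ. Its log2 fold change was -1.81 (SE 0.29, adjusted p 0.102, edgeR). The squalene enzymes FDFT1 and SQLE averaged 90.7 ± 19.9 and 98.5 ± 12.6 CPM in TAP1-high lines, against 228 ± 47.7 and 178 ± 35.3 in TAP1-low lines. In 5 of the 24, HMGCS1, FDFT1 and SQLE among them, all TAP1-high lines were below all TAP1-low lines. Of all tested genes, 2.22% were apart downward. For HMGCS1 this separation was a condition of being named. MVK went the other way only with Lan-6, which had 280 CPM, against 16.4 to 33.5 in the other TAP1-high lines and 18.6 to 69.9 in TAP1-low lines.

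**Figure D5:**
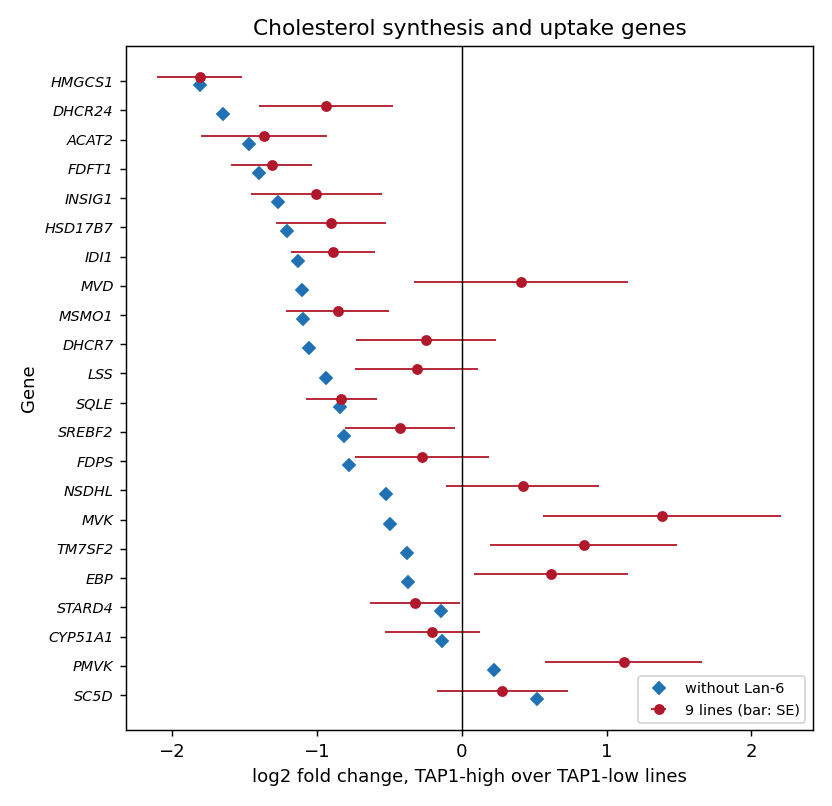
Log2 fold change of TAP1-high over TAP1-low lines for 22 cholesterol synthesis and uptake genes, red circles with SE for the 9 lines and blue diamonds without Lan-6. Of the circles 15 lie below 0, and the diamonds of MVK, MVD, NSDHL, TM7SF2 and EBP lie on the negative side where their circles lie on the positive side.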

How the data were processed

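RNA of 14 lines was sequenced with 1 library per line, and the 9 lines above were compared. Named in the submitters' processing notes are kallisto 0.44.0, DESeq2 1.48.2 and the build GRCh38. The annotation, the summing of transcripts and the use of strand are not given in the sources used, so overlapping and antisense genes may share reads. The table deposited by the authors holds whole numbers for 20049 gene symbols and was taken to hold unscaled expected counts, rounded by the authors, which rests on the values alone. The authors' deposited log2 values, named variance-stabilised with settings not stated, served only as an alternative.

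CPM came from TMM factors over the 14 lines (edgeR 4.0.16, R 4.3.3), with a prior count of 2 on the log2 scale. The comparison was edgeR's robust quasi-likelihood test after filterByExpr, with Benjamini-Hochberg adjustment over 17340 genes, TAP1 left out, and a threshold of 0.05. SE is the log2 fold change over the root of the F statistic. The test was checked on simulated data. The groups come from the TAP1 limit of 1 CPM, not from labels, and the members, rule and gene lists were chosen with earlier results of these data known. Beyond the 24 lists, with 236 of 237 memberships measured, and the added cholesterol list, genes were named that had a mean of at least 5 CPM, an unadjusted p under 0.05 without Lan-6 and, where they did not pass, groups that did not overlap, up to 10 per direction. Some list members are not reported here. Older symbols in the table were matched to current ones. Sequences are from RefSeq (GRCh38.p14). No pair of the 9 libraries (36 pairs) was identical, and 266 was the lowest chi-square per gene, so no library was treated as a copy. Counting limits cover counting error only. Alternatives were DESeq2 size factors, DESeq2 1.42.0, no filter, limma 3.58.1 on the log2 values, each line left out, a slope on TAP1, MYCN as a covariate, length and GC trends removed (98.9% of tested genes had both), all 14 lines and, added after seeing the data, no Lan-6 or SK-N-AS.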

Additional observations from a re-analysis of the deposited data

Results flagged for a closer look

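Each result here had 1 line far from the rest of its group by Dixon's test at the 95% level, which chance passes in about 1 of 20 groups. Both groups of the 39 genes followed and of TAP1 and PSMB8 were searched, unless levels were low or close together. Some flags by chance would therefore be expected. HLA-B was at 23.0 CPM in SK-N-FI, against 1.41 to 1.59 CPM in the other TAP1-high lines. TOP2A was at 148 CPM in Lan-6, against 451 to 566 in the other TAP1-high lines. OAS3 was at 3.25 CPM in CLB-GA, against 0.128 to 0.311 in the other TAP1-low lines.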

How the results depend on the processing

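No paired analysis was possible because each line has 1 library and the replicate numbers only name samples. All 701 values of the 39 genes followed kept their direction, while 16 lost a call and 44 gained one. The genes followed were those whose groups did not overlap in the 9 lines. Their direction could therefore hardly change, and keeping it says little about robustness. Beside 0 genes higher and 2 lower, DESeq2's Wald test called 254 and 356, limma on the deposited log2 values 4 and 12, and the fit with length and GC trends removed 2 and 5 (SLC1A2, SEMA5A, NCAN, GRIP1 and LAMA1 lower, DDX60L and PSMB8 higher). The slope on TAP1, MYCN as a covariate and all 14 lines called 0 lower, with 548, 583 and 954 lower at an unadjusted p under 0.05. Leaving out 1 line gave 0 to 1 genes higher and 0 to 7 lower: 0 lower without SK-N-AS or SK-N-BE(2)C, 7 without SK-N-FI. Without both Lan-6 and SK-N-AS, 1 was higher and 1 lower, and neither SLC1A2 nor SEMA5A was among them. The groups were apart upward in 302 to 689 genes and downward in 470 to 775 with 1 line left out (443 and 582 without Lan-6), and in 964 and 1149 without both. Fewer lines make separation easier by construction; otherwise the cause was not tested. With 50 or fewer counts of TAP1 in 6 of the 9 lines, the TAP1 levels of single lines are imprecise.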

Other observations

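Genes with the widest log2 gap between the nearest lines of the groups were looked up after their values were seen and have no test of their own. Given here are the first 5 in each direction that were not described above. Of the genes above in TAP1-high lines, DDX60, an interferon-induced helicase, was at 2.98 to 28.3 CPM in TAP1-high lines and 0.0214 to 0.394 in TAP1-low lines. HTR2B, a serotonin receptor, was at 3.12 to 26.3 CPM and 0.0211 to 0.414. SLC25A43, of the mitochondrial carrier family, was at 6.17 to 14.8 CPM and 0.0807 to 1.05. In all 3 the lowest TAP1-high line was well above the highest TAP1-low line. SP110, an interferon-induced nuclear body protein, was at 1.30 to 22.0 CPM in TAP1-high lines and 0.0633 to 0.257 in TAP1-low lines. FFAR3, a receptor for short-chain fatty acids, was at 0.235 to 4.05 CPM and 0 to 0.0207. Of the genes below in TAP1-high lines, TMEM200C was at 0 to 0.0472 CPM in TAP1-high lines and 1.2 to 17.7 in TAP1-low lines. TMEM200C had 0 CPM in 3 of the 4 TAP1-high lines. KCTD8, which binds GABA-B receptors, was at 0 to 0.0708 CPM in TAP1-high lines and 1.2 to 25.9 in TAP1-low lines. PRPH2, a photoreceptor disc protein, was at 0.0236 to 0.102 and 1.51 to 22.2. SMOC1, a secreted calcium-binding protein, was at 0.0361 to 0.189 and 2.42 to 20.3. The catenin gene CTNND2, or delta-catenin, was at 0 to 0.632 and 8.47 to 159.

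Shares of genes whose groups were apart are given by chromosome with no test, since genes of 1 chromosome are not independent of each other. Below in all TAP1-high lines were 12 of 233 tested genes on chromosome 18 (5.15%), 44 of 1016 on chromosome 17 (4.33%) and 34 of 957 on chromosome 3 (3.55%), beside 2.22% of all tested genes. The lowest such share was 4 of 793 on chromosome 16 (0.504%). Above in all TAP1-high lines were 31 of 873 on chromosome 7 (3.55%), 23 of 711 on chromosome 9 (3.23%) and 18 of 793 on chromosome 16 (2.27%), beside 1.40% of all, and the lowest share was 0 of 233 on chromosome 18.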
